A study of Homo sapiens with 12 samples.

Results

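The genes described here are 32 genes of the pathway in which sterol regulatory element-binding proteins (SREBPs) drive the synthesis of cholesterol and fatty acids, taken by gene symbol from 34886 genes of an mRNA sequencing table. They comprise 5 regulators (SREBF1, SREBF2, SCAP, INSIG1 and INSIG2), 18 genes of the sterol branch (17 enzymes and the sterol carrier STARD4) and 9 genes of the fatty acid branch. The list names symbols and sets no threshold on a measured value, and each of the 32 passed the filter on low counts. RNA came from NCI-H446 cells, a line from a human small cell lung cancer grown with serum. Treated cells were harvested after 8 h in 40 µM CAPE, caffeic acid phenethyl ester, a bee propolis compound dissolved in DMSO. Control cells received DMSO alone at an equal volume, and no group differed in genotype. Each treatment was sequenced in 3 mRNA libraries and 3 miRNA libraries, with 1 dose and 1 time only. No label says that the libraries of a treatment came from separate cultures, so the p-values below measure the spread between these libraries, which may be technical.

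SREBPs are transcription factors made as membrane proteins of the endoplasmic reticulum. SCAP, a sterol-sensing escort protein, carries them to the Golgi, where proteases release the active part; when sterols are plentiful, INSIG1 and INSIG2 bind SCAP and hold the complex back. SREBP-2, from SREBF2, acts mainly on cholesterol genes and SREBP-1, from SREBF1, mainly on fatty acid genes, and INSIG1 is itself an SREBP target.

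With CAPE, mRNA of the sterol branch was lower, mRNA of the fatty acid branch was lower by a smaller amount, and the INSIG genes moved in opposite directions. INSIG1 was 3.06-fold lower and INSIG2 4.13-fold higher with CAPE, without DMSO 3. Without that library, 17 of 18 sterol genes and 6 of 9 fatty acid genes fell, beside 20.8% of all genes that fell and 20.4% that rose, and the median log2 fold change was -0.56 in the sterol branch and -0.32 in the fatty acid branch. In all 6 libraries only INSIG1, SQLE and MSMO1 fell and only INSIG2 rose at an adjusted p under 0.05.

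One control library, DMSO 3, stood apart, so the tests were run with and without it. Total counts per mRNA library were 17569997 to 20917508, and the scaling factor (TMM, which corrects for the makeup of each library) was 1.07 to 1.09 in 5 libraries and 0.699 in DMSO 3. In CPM (counts relative to the scaled library size), DMSO 3 deviated from the mean of DMSO 1 and DMSO 2 by -1.73 (STARD4) to 1.89 (EBP) on the log2 scale among the 32 genes, and 7 of them were more than 2-fold above it. Those deviations followed transcript length: Pearson's r with log2 relative length was -0.57 over the 32 genes and -0.44 over all 13595 genes tested, all values coming from this 1 library. EBP, FDPS, MVK and MVD, whose transcripts are short, were high in DMSO 3. HMGCS1 and LPIN1, whose transcripts are long, were low, but SCAP, FASN, SREBF2, ACLY and LSS, also long, were above DMSO 1 and 2. With all genes tested split into 3 groups by length, 11 of the 32 genes were in the longest group. Their median log2 deviation was -0.067, against -0.61 over all genes of that group. TPM, the deposited levels per transcript length, are given for some of the genes.

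The cell line was checked against marker genes of its labelled type. Of 11 neuroendocrine and small cell lung cancer markers, 7 did not pass the filter and reached at most 0.264 CPM in any library, among them NEUROD1, POU2F3, INSM1, CHGA, NCAM1 and GRP. The summed level of the 11 markers was 45.3 to 75.5 CPM with DMSO and 178 to 195 CPM with CAPE, which was mostly ENO2 (38.9, 37.8 and 53.7 CPM against 176, 169 and 188 CPM). The part of this difference in the results below was not tested. Summed epithelial markers were 1276 to 5346 CPM with DMSO and 1122 to 1184 CPM with CAPE, with 3 of 4 passing; KRT8 had 913, 873 and 3421 CPM with DMSO and 802, 776 and 759 CPM with CAPE, so DMSO 3 was far above the rest, and KRT8 and KRT18 were called lower without it. Their part in the results was not tested. Summed endothelial markers were 3.21 to 4.11 and 1.97 to 3.17 CPM, with 1 of 3 passing. None of the 5 hepatocyte and adipocyte markers passed the filter. Summed fibroblast markers were 44.7 to 66.6 CPM with DMSO and 62.1 to 66.9 CPM with CAPE, with 5 of 6 passing. Summed leukocyte markers were 24.1 to 49.8 and 25.6 to 28.2 CPM, with 2 of 5 passing. In bulk RNA, fewer cells expressing a gene and less of its RNA per cell cannot be told apart.

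**Figure D1:**
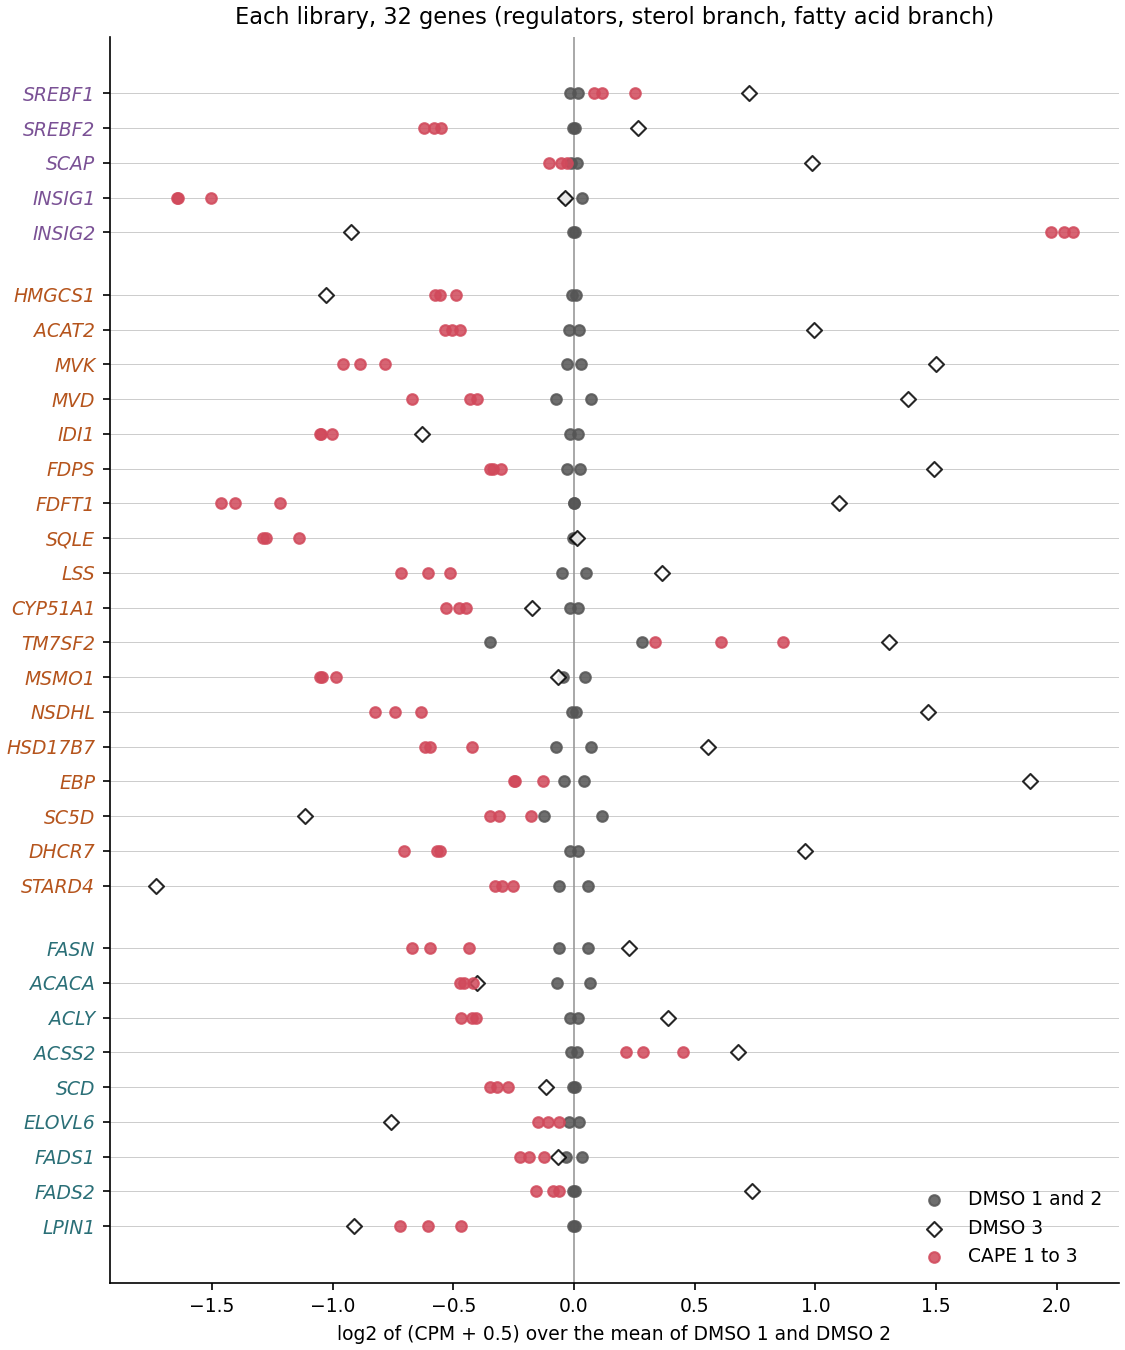
Level of each of the 32 genes in each library as log2 of CPM + 0.5 over the mean of DMSO 1 and DMSO 2 (x axis), one gene per row, with regulators at the top, then the sterol branch, then the fatty acid branch. The 3 CAPE libraries lie close together and left of DMSO 1 and DMSO 2 for most genes, INSIG2 lies at the far right, and DMSO 3 (open diamonds) ranges from -1.73 at STARD4 to 1.89 at EBP.

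Among the regulators, INSIG1 had 83.5, 87.7 and 83.5 CPM in DMSO 1 to 3 and 27.1, 27.0 and 29.9 CPM in CAPE 1 to 3. All 3 CAPE libraries were below all 3 DMSO libraries, and DMSO 3 lay at the level of the other controls in CPM. By edgeR's quasi-likelihood test its log2 fold change was -1.60 in 6 libraries (SE 0.13, adjusted p = 0.0106) and -1.62 (SE 0.065, adjusted p = 8.35e-11) without DMSO 3, where INSIG1 ranked 46 from the bottom among 13919 genes. In TPM the values were 53.0, 56.0 and 23.6 with DMSO and 18.5, 18.2 and 18.8 with CAPE, which still do not overlap. The gene lies on chromosome 7 at 155297878 to 155310235 (RefSeq GRCh38.p14).

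INSIG2, the other retention protein, moved the opposite way. It had 22.6, 22.5 and 11.6 CPM with DMSO and 93.3, 90.1 and 95.9 CPM with CAPE. The groups did not overlap, and DMSO 3 was the lowest library. In 6 libraries INSIG2 rose by 2.30 on the log2 scale (SE 0.28, adjusted p = 0.0253), and by 2.04 (SE 0.064, adjusted p = 7.77e-12) without DMSO 3, where it ranked 157 from the top among 13919 genes. INSIG2 lies on chromosome 2 at 118088471 to 118110997.

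The INSIG pair therefore changed its order. On the TPM scale the ratio of INSIG2 to INSIG1 was 0.467, 0.382 and 0.173 with DMSO and 5.58, 5.36 and 5.55 with CAPE. INSIG1 was the more abundant transcript per length in every control library and INSIG2 in every CAPE library. A ratio of this kind needs no library scaling. The exact two-sided permutation p was 0.1, the smallest that 3 against 3 libraries allow, over 20 regroupings.

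SREBF2, which encodes SREBP-2, had 164, 164 and 197 CPM with DMSO and 112, 106 and 109 CPM with CAPE. Every CAPE library was below every DMSO library in CPM. It fell without DMSO 3 (log2 fold change -0.59, SE 0.045, adjusted p = 1.11e-07) and did not pass in 6 libraries (-0.68, SE 0.15, adjusted p = 0.0961). In TPM, DMSO 3 (27.7) was below the CAPE libraries (42.0, 40.0 and 43.7) while DMSO 1 and 2 (62.1 and 59.8) were above them.

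SREBF1, which encodes SREBP-1, had 88.9, 90.9 and 149 CPM with DMSO and 107, 95.3 and 97.3 CPM with CAPE. The CAPE values lay between those of DMSO 2 and DMSO 3, and neither fit passed: -0.13 (SE 0.24, adjusted p = 0.743) in 6 libraries and 0.15 (SE 0.058, adjusted p = 0.0522) without DMSO 3. Per length, SREBF1 exceeded SREBF2 in every library, by a ratio of 1.39, 1.40 and 2.10 with DMSO and 2.16, 2.21 and 1.96 with CAPE. DMSO 3 fell among the CAPE values, and the exact two-sided permutation p was 0.2.

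SCAP had 115, 117 and 230 CPM with DMSO and 114, 111 and 108 CPM with CAPE. The CAPE libraries lay just under DMSO 1 and 2, with log2 fold changes of -0.47 (adjusted p = 0.388) in 6 libraries and -0.066 (adjusted p = 0.289) without DMSO 3. In TPM the direction was the opposite, at 60.2, 60.1 and 47.8 with DMSO and 60.8, 60.7 and 63.6 with CAPE.

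**Figure D2:**
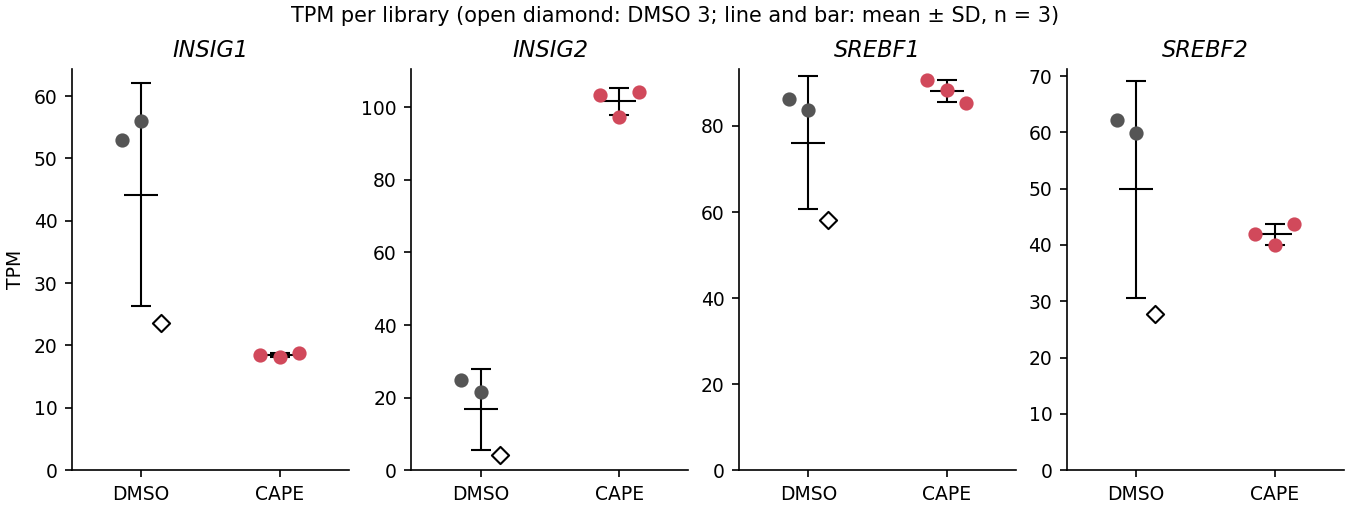
TPM (y axis, from 0) of INSIG1, INSIG2, SREBF1 and SREBF2 in each DMSO and CAPE library, with the mean and SD of 3 libraries and DMSO 3 as an open diamond. INSIG1 falls to between 18.2 and 18.8 TPM with CAPE, and INSIG2 lies between 97.3 and 104 TPM with CAPE against at most 24.8 with DMSO.

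The host genes of miR-33 are the SREBP genes themselves. miR-33a is made from an SREBF2 intron and miR-33b from an SREBF1 intron, and this pair is known for repressing cholesterol efflux genes. The mature sequences (RefSeq, GRCh38.p14) are shown because the 5p arms share their seed, bases 2 to 8, in capitals, so that either could pair with the same sites.
hsa-miR-33a-5p: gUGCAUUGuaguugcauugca
hsa-miR-33b-5p: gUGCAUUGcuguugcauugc
hsa-miR-33a-3p: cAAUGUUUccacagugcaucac
hsa-miR-33b-3p: cAGUGCCUcggcagugcagccc
The miR-33a arms lie on the plus strand at chr22:41900949-41900969 (5p) and chr22:41900989-41901010 (3p), within SREBF2 and on its strand. The miR-33b arms lie on the minus strand at chr17:17813897-17813916 (5p) and chr17:17813857-17813878 (3p), within SREBF1 and on its strand. The 3p arms have different seeds, AAUGUUU and AGUGCCU.

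In the miRNA libraries (4637576 to 8933025 counts each) 11.8% of 527 miRNAs tested passed, and none of the miR-33 arms did. miR-33a-5p, from the gene that fell, had 7.77, 8.04 and 8.93 CPM with DMSO and 7.08, 8.17 and 7.36 CPM with CAPE. The groups overlapped, with a log2 fold change of -0.13 (SE 0.21, adjusted p = 0.763). miR-33a-3p differed by 0.13 (SE 0.23, adjusted p = 0.793) and miR-33b-3p by -0.17 (SE 0.19, adjusted p = 0.680). miR-33b-5p was not tested: its counts were 0, 0 and 1 with DMSO and 1, 2 and 2 with CAPE, too few for a fold. The tested arms rest on 38 to 203 counts a library.

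The sterol branch begins with the mevalonate steps, which build the isoprenoid units. HMGCS1, which makes HMG-CoA, had 148, 150 and 72.9 CPM with DMSO and 101, 106 and 99.9 CPM with CAPE. The CAPE libraries were below DMSO 1 and 2 and above DMSO 3. It fell without DMSO 3 (log2 fold change -0.55, adjusted p = 3.79e-07) and not in 6 libraries (-0.27, adjusted p = 0.577). ACAT2, the cytosolic thiolase of the first step, differed by -0.51 without DMSO 3, and the kinase MVK by -0.92, from 15.8 and 15.1 CPM in DMSO 1 and 2 to 7.71, 8.77 and 8.13 CPM with CAPE. MVD, the decarboxylase, fell by 0.51. IDI1, the isomerase that makes the allylic unit, had 79.0, 77.3 and 50.3 CPM with DMSO and 38.7, 37.5 and 37.4 CPM with CAPE, a log2 fold change of -1.05 without DMSO 3 (adjusted p = 2.48e-09). FDPS, which joins these units to farnesyl diphosphate, fell by 0.33 (adjusted p = 2.14e-05). In 6 libraries none of these passed, and the values moved: -0.93 for ACAT2 (adjusted p = 0.232), -1.61 for MVK (adjusted p = 0.180), -1.14 for MVD (adjusted p = 0.278), -0.86 for IDI1 (adjusted p = 0.129) and -1.01 for FDPS (adjusted p = 0.323). FDPS had 198, 191 and 548 CPM with DMSO and 154, 153 and 158 CPM with CAPE, with DMSO 3 far above the other controls. In TPM, IDI1 in DMSO 3 was at 18.7, below the CAPE libraries (32.9, 31.3 and 29.7), with DMSO 1 and 2 at 62.7 and 64.6. MVK overlapped in TPM with and without DMSO 3, at 18.4, 27.1 and 18.8 with DMSO and 11.5, 13.0 and 19.5 with CAPE.

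Without DMSO 3, the largest falls in the branch were in FDFT1 and SQLE, the enzymes that commit farnesyl diphosphate to sterols. FDFT1, squalene synthase, had 47.2, 47.3 and 102 CPM with DMSO and 16.8, 20.05 and 17.5 CPM with CAPE. All CAPE libraries were well under all DMSO libraries, and DMSO 3 was the highest. Its fold change was -1.39 in log2 without DMSO 3 (SE 0.080, adjusted p = 4.37e-09), the lowest of the branch, and -1.85 in 6 libraries, where the wide spread of the controls left it at adjusted p = 0.0668. In TPM it was 55.0, 56.8 and 49.2 with DMSO and 19.1, 24.9 and 18.0 with CAPE.

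SQLE, squalene epoxidase, the next enzyme and a rate-limiting one, had 90.7, 90.3 and 91.2 CPM with DMSO and 36.8, 40.8 and 37.0 CPM with CAPE. The controls lay close together in CPM, DMSO 3 included. In TPM, DMSO 3 was at 27.8, against 55.6 and 51.3 in DMSO 1 and 2. The CAPE libraries were at 21.0, 24.4 and 21.5 TPM, still below it. SQLE fell in both fits, by 1.25 (SE 0.13, adjusted p = 0.0172) in 6 libraries and 1.25 (SE 0.061, adjusted p = 6.80e-10) without DMSO 3. LSS, lanosterol synthase, which closes the rings, differed by -0.62 (adjusted p = 2.44e-06) without DMSO 3 and -0.75 (adjusted p = 0.107) in 6 libraries.

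The later enzymes turn lanosterol into cholesterol. MSMO1, the C4-methyl oxidase, had 59.7, 63.6 and 58.8 CPM with DMSO and 29.5, 29.7 and 30.9 CPM with CAPE. The groups were far apart in CPM, and it fell in both fits (-1.02, SE 0.13, adjusted p = 0.0256 in 6 libraries; -1.04, SE 0.064, adjusted p = 9.03e-09 without DMSO 3). In TPM, however, DMSO 3 was at 23.0, among the CAPE values of 24.1, 23.0 and 24.6, against 47.1 and 51.4 in DMSO 1 and 2. NSDHL, which acts with MSMO1 in removing the C4 methyl groups, fell by 0.74 (adjusted p = 6.18e-07) without DMSO 3, and HSD17B7, the third member of that set of enzymes, by 0.57 (adjusted p = 0.00107). CYP51A1, the C14-demethylase, fell by 0.49 and DHCR7, the last reductase, by 0.61, also without DMSO 3. In 6 libraries these did not pass, at -1.41 for NSDHL (adjusted p = 0.211), -0.78 for HSD17B7 (adjusted p = 0.174), -0.43 for CYP51A1 (adjusted p = 0.212) and -1.01 for DHCR7 (adjusted p = 0.194).

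The smallest called falls in the branch, without DMSO 3, were in EBP (-0.21, adjusted p = 0.00674), SC5D (-0.29, adjusted p = 0.0339) and STARD4 (-0.30, adjusted p = 0.00314). EBP, the sterol isomerase, had 99.5, 105 and 381 CPM with DMSO and 93.5, 86.4 and 86.2 CPM with CAPE. Its DMSO 3 value was the farthest above the other controls among the 32 genes, and the 6-library value was -1.14 (adjusted p = 0.344). STARD4, which carries cholesterol between membranes, had 37.5, 40.8 and 11.4 CPM with DMSO and 31.8, 32.8 and 31.1 CPM with CAPE, the farthest below. SC5D, the desaturase, and STARD4 had log2 fold changes of 0.0068 and 0.091 in 6 libraries, so that their direction rests on leaving out DMSO 3.

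TM7SF2, a C14-sterol reductase, did not pass in either fit. It had the fewest counts of the 32 genes, at 1.16, 0.574 and 2.87 CPM with DMSO and 1.59, 1.22 and 1.99 CPM with CAPE. The groups overlapped, and its SE was 0.37 without DMSO 3 (log2 fold change 0.88, adjusted p = 0.0705) against at most 0.115 for the other 31 genes.

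The fatty acid branch starts with the supply of acetyl-CoA. ACLY, which cleaves citrate, had 496, 486 and 644 CPM with DMSO and 371, 367 and 355 CPM with CAPE. No CAPE library reached a DMSO library in CPM, and it fell without DMSO 3 (log2 fold change -0.43, SE 0.038, adjusted p = 4.51e-07) but not in 6 libraries (-0.57, adjusted p = 0.197). In TPM, DMSO 3 was at 112, below the CAPE libraries (146, 147 and 140), with DMSO 1 and 2 at 194 and 189. ACSS2, which makes acetyl-CoA from acetate, rose without DMSO 3, from 13.9 and 14.1 CPM to 17.2, 16.3 and 19.3 CPM with CAPE (0.33, SE 0.10, adjusted p = 0.0197). With DMSO 3 at 22.7 CPM the groups overlapped, and the 6-library value was 0.06 (adjusted p = 0.885). In TPM the groups overlapped with and without DMSO 3.

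ACACA and FASN turn acetyl-CoA into palmitate. ACACA, the carboxylase, had 243, 221 and 175 CPM with DMSO and 173, 169 and 167 CPM with CAPE. CAPE 1 was only just below DMSO 3, and the log2 fold change was -0.45 (adjusted p = 2.70e-06) without DMSO 3 and -0.33 (adjusted p = 0.351) with it. FASN, the synthase, had 726, 669 and 817 CPM with DMSO and 516, 461 and 437 CPM with CAPE, which do not overlap. In TPM, DMSO 3 (122) was below the CAPE libraries (145, 134 and 144) and DMSO 1 and 2 (233 and 213) above them. It was lower by 0.57 without DMSO 3 (SE 0.058, adjusted p = 2.03e-06), and in 6 libraries the log2 fold change was -0.65 (adjusted p = 0.141).

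Desaturation and elongation differed less. SCD, which makes monounsaturated fatty acids, had 457, 455 and 421 CPM with DMSO and 365, 358 and 377 CPM with CAPE, and fell by 0.32 without DMSO 3 (adjusted p = 1.21e-05). FADS1, the delta-5 desaturase, fell by 0.18 (adjusted p = 0.00353). In 6 libraries SCD was at -0.28 (adjusted p = 0.346) and FADS1 at -0.16 (adjusted p = 0.50). ELOVL6, an elongase, and FADS2, the delta-6 desaturase, did not pass in either fit: without DMSO 3 their log2 fold changes were -0.11 (SE 0.059, adjusted p = 0.151) and -0.11 (SE 0.064, adjusted p = 0.198), and in 6 libraries 0.11 (adjusted p = 0.788) and -0.39 (adjusted p = 0.374). FADS1 and FADS2 overlap on chromosome 11 (61799627 to 61817003 and 61816203 to 61867354), and since the use of strand in counting is not given, reads in the overlap may be shared.

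LPIN1, a phosphatidate phosphatase of triglyceride synthesis, had the lowest value of the branch without DMSO 3, -0.61 (SE 0.087, adjusted p = 5.31e-05). It had 30.0, 29.9 and 15.7 CPM with DMSO and 18.0, 21.5 and 19.5 CPM with CAPE. DMSO 3 was below every CAPE library, and the 6-library value was -0.36 (adjusted p = 0.461). HSD17B7 and FDPS have close pseudogene copies, between which estimated counts can be divided uncertainly.

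Counted over the set, 3 of 32 genes fell and 1 rose in 6 libraries, beside 0.456% of all genes tested that fell and 1.49% that rose. Leaving out any 1 of the other 5 libraries while keeping DMSO 3 left none of the 32 called by edgeR. Without DMSO 3, 25 fell and 2 rose, beside 20.8% and 20.4% of 13919 genes. That background is high, so a fall of 0.18 such as that of FADS1 is of a kind many genes show. By size, 16 of the 32 genes were below -0.5 without DMSO 3, 12 of them in the sterol branch, 2 in the fatty acid branch and 2 regulators, beside 6.15% of all genes. All 3 CAPE libraries were below all 3 DMSO libraries in CPM for 23 of the 32 genes, beside 20.6% of all genes, and above them for 1, INSIG2, beside 21.4%. In TPM the groups were separated downward for 9 of the 32, beside 8.17% of all genes: INSIG1 and 8 of the sterol branch (ACAT2, MVD, FDPS, FDFT1, SQLE, NSDHL, EBP and DHCR7), with DMSO 3 low in TPM for most of the others.

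**Figure D3:**
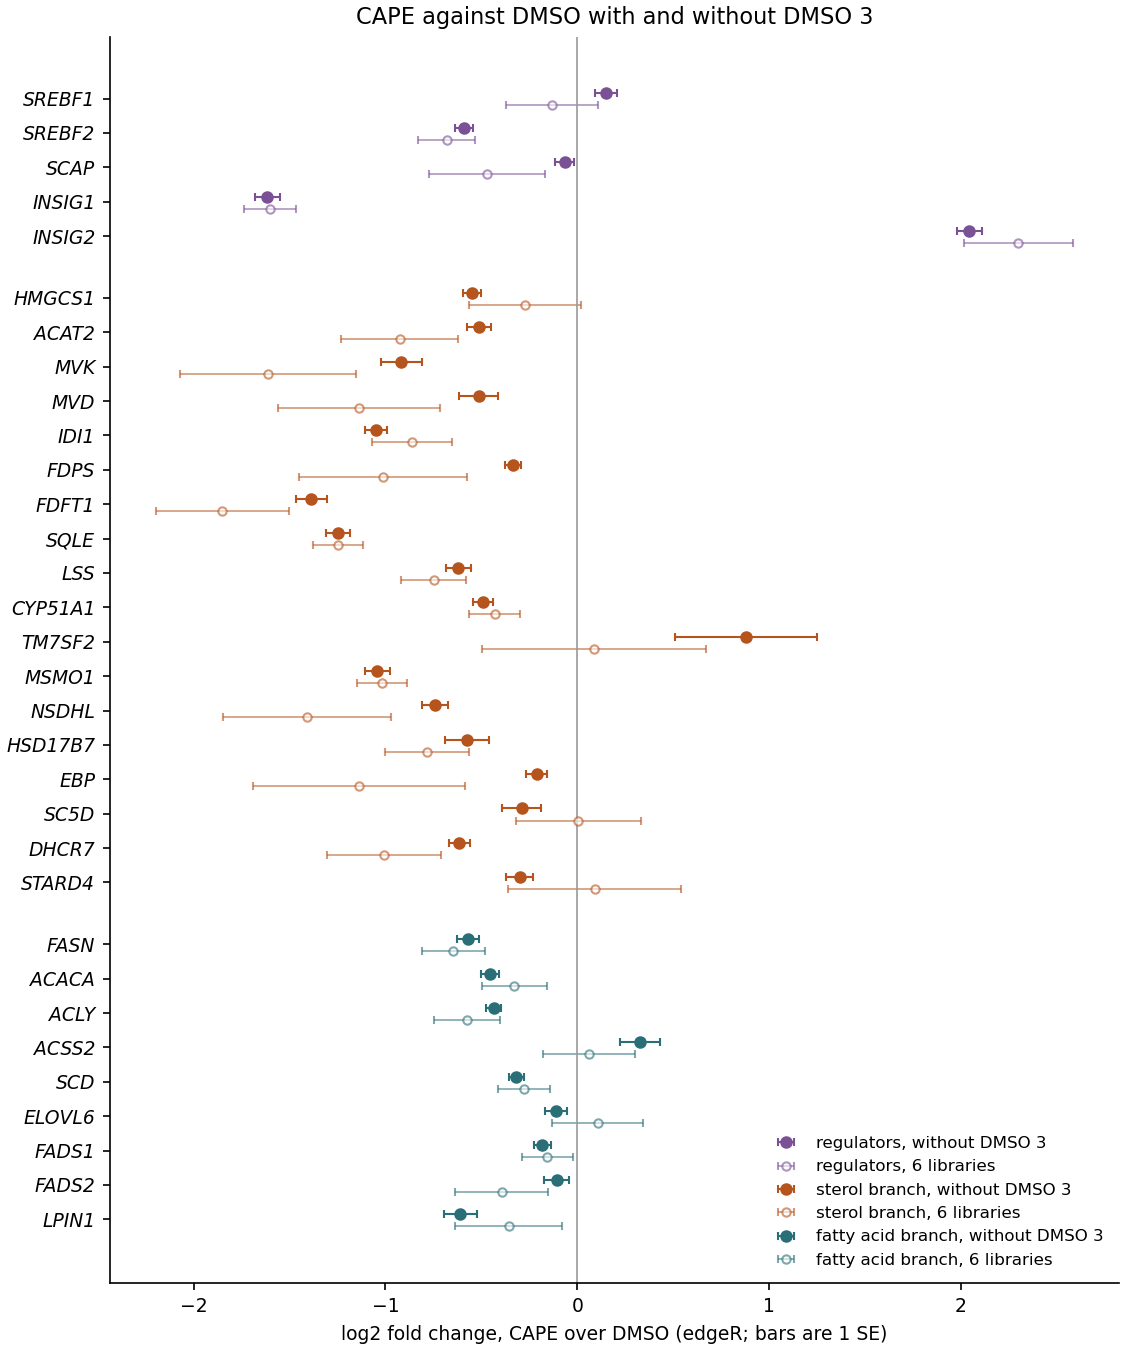
Log2 fold change of CAPE over DMSO (x axis) from edgeR for each gene, with bars of 1 SE. Filled points leave out DMSO 3 and open points use all 6 libraries. Without DMSO 3, 17 of 18 sterol genes lie left of 0, INSIG1 is at -1.62 and INSIG2 at 2.04.

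The sterol branch was set beside the fatty acid branch. Without DMSO 3, 17 of 18 sterol genes fell, 0 rose, and the values ran from -1.39 (FDFT1) to 0.88 (TM7SF2). DESeq2 called 16 lower and 0 higher, and at an unadjusted p under 0.05 TM7SF2 was the 1 gene counted as higher. In the fatty acid branch 6 of 9 fell and 1 rose, with values from -0.61 (LPIN1) to 0.33 (ACSS2). DESeq2 called 6 of this branch lower and 0 higher. The medians were -0.56 and -0.32, a difference of -0.24, beside a median of 0.00 over all genes. In 6 libraries the medians were -0.97 and -0.33, a difference of -0.64, beside -0.01 over all genes. There 2 sterol genes and 0 fatty acid genes fell (edgeR); at an unadjusted p under 0.05 the counts were 12 and 2, and by DESeq2 10 and 2. The sign of the difference was the same with and without DMSO 3, and its size was not. The branches were chosen with results known, so no test was made over them.

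Summed TPM was compared per library. The 18 sterol genes summed to 1289, 1313 and 1330 TPM with DMSO and 942, 914 and 896 TPM with CAPE, with no overlap. For DMSO 3, nearly all of that margin came from FDPS and EBP, both high in that library. The other 16 genes summed to 685, 692 and 427 TPM with DMSO and 426, 420 and 409 TPM with CAPE. That puts DMSO 3 only just above the CAPE libraries. The 9 fatty acid genes summed to 844, 822 and 434 TPM with DMSO and 656, 618 and 651 TPM with CAPE, so that DMSO 3 lay below the CAPE libraries. The 5 regulators summed to 286, 281 and 161 TPM with DMSO and 315, 305 and 316 TPM with CAPE.

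Promoters were compared because most of the sterol genes moved together. SREBPs are known to act together with NF-Y, which binds the CCAAT box, and with Sp1, which binds GC boxes. In the RefSeq table of promoters (GRCh38.p14), 28 of the 32 genes had an entry (ACAT2, FDFT1, SQLE and FASN had none), and the 250 bases before the first listed start were searched on both strands. The motifs were the sterol regulatory element core TCACNCCAC, the E-box CACGTG, the CCAAT box CCAAT and the GC box GGGCGG. A window of 200 bases up to the start is shown for each of the genes called in 6 libraries that has an entry, and for SREBF2. Capitals mark matches to the first 3 motifs on either strand (ATTGG is CCAAT on the minus strand).
INSIG1: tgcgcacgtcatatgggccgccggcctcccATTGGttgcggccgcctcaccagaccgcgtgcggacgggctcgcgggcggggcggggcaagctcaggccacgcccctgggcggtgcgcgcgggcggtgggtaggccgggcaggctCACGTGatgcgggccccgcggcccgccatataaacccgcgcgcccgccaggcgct
INSIG2: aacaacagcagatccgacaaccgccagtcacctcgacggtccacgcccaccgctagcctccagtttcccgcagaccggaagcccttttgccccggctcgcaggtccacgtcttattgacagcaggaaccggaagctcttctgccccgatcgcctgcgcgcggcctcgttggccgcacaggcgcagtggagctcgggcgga
SREBF2: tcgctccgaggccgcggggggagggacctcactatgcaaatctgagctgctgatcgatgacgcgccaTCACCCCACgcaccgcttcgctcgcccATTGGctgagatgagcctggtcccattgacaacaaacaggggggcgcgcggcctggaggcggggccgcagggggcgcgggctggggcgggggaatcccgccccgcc
MSMO1: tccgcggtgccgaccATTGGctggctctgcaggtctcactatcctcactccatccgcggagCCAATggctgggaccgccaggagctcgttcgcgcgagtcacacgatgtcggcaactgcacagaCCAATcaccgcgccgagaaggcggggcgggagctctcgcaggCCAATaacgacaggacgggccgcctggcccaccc
These windows lie on the plus strand at chr7:155297678-155297877 (INSIG1), chr2:118088271-118088470 (INSIG2), chr22:41832905-41833104 (SREBF2) and chr4:165327469-165327668 (MSMO1).

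INSIG1, which fell, has an E-box at position -55 and a CCAAT box at -170 from the start. INSIG2, which rose, has neither in this window, nor the sterol regulatory element core. SREBF2 has that core at -133 with a CCAAT box at -106. MSMO1 has 4 CCAAT boxes, at -185, -139, -76 and -34.

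Over the 28 genes, a CCAAT box was present in 13 of 15 sterol genes, 3 of 8 fatty acid genes (ACLY, ACSS2 and SCD) and 2 of 5 regulators. It was present in 33% of the promoters of 27305 genes and in 35.0% of 10069 genes tested here. The 13 sterol genes held 33 matches, and 9 of them held 2 or more; in NSDHL a match on each strand overlapped. IDI1 and CYP51A1 had none, and both fell without DMSO 3. The core TCACNCCAC was found in SREBF2 alone, beside 0.875% of all promoters. Only exact matches in this window were counted, so variant or more distant elements would not be seen. The E-box was found in INSIG1, SCAP and SC5D, beside 6.49%. The GC box was found in 26 of 28, beside 42.3% of all promoters and 67.1% of those of the genes tested; some of its matches overlapped each other in INSIG1 and ACACA. The 18 genes with a CCAAT box had a median log2 fold change of -0.53 without DMSO 3 and the 10 without one -0.15. These genes include most of the sterol branch, so motif and branch cannot be told apart here.

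**Figure D4:**
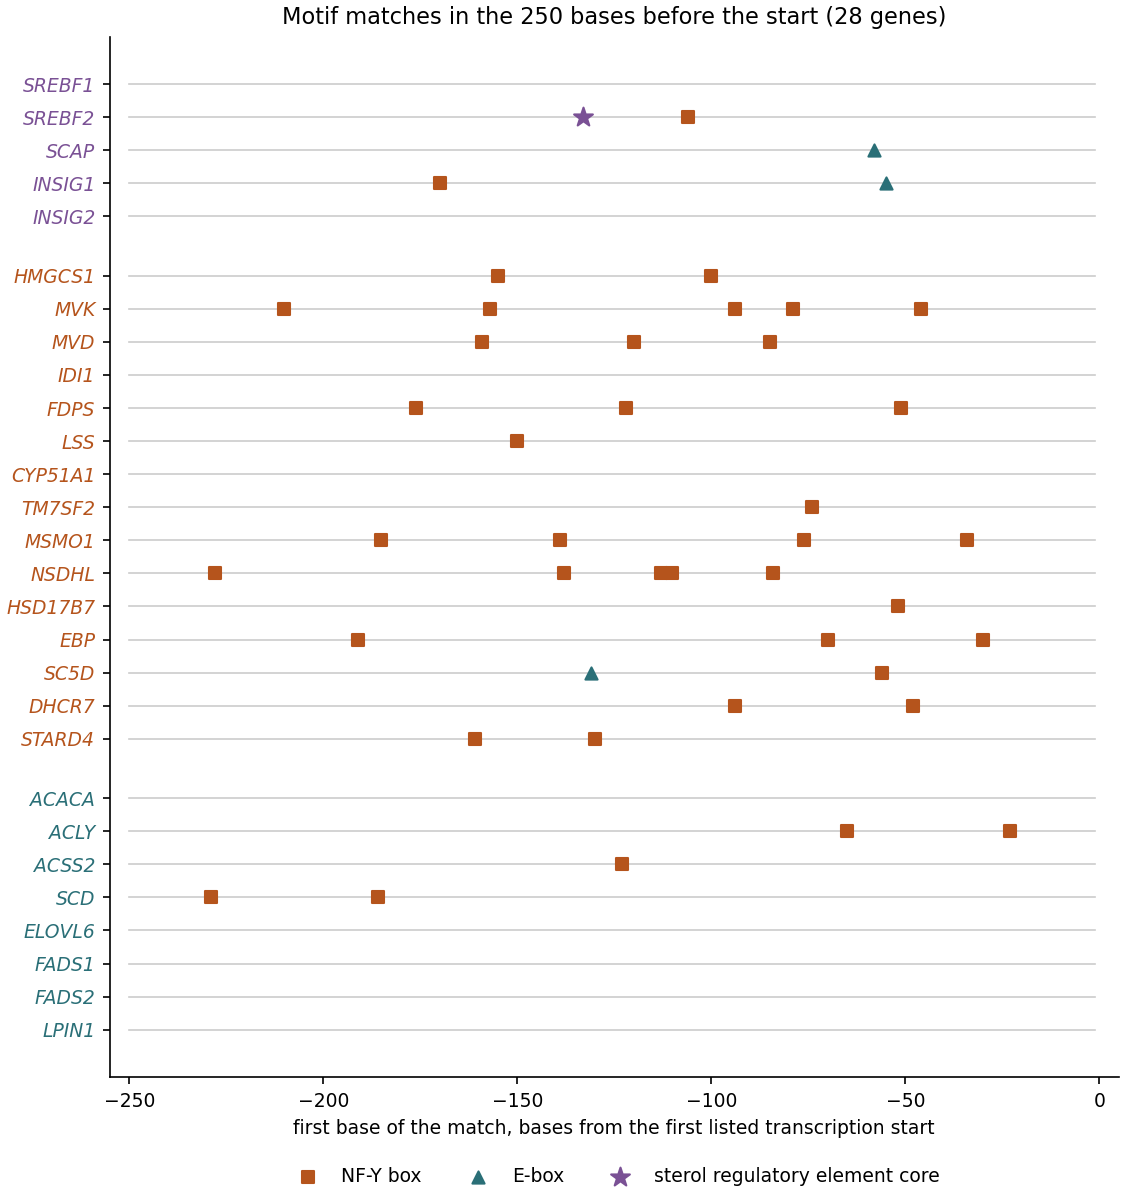
Positions of the CCAAT (NF-Y) box, the E-box and the sterol regulatory element core in the 250 bases before the first listed start (x axis, bases from the start) for the 28 genes with a promoter entry. Squares, CCAAT boxes, fill most rows of the sterol branch (13 of 15) and few of the fatty acid branch (3 of 8), and the single star is in SREBF2.

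Other genes of the same pathways were counted from lists. The counts and values are from the fit without DMSO 3 unless stated, in which 20.8% of all genes fell and 20.4% rose, so counts near 2 in 10 in a direction are at the background. In 6 libraries, of the genes named from these lists only VLDLR passed. Of 8 other sterol synthesis genes 4 fell and 1 rose. LBR, a C14-sterol reductase like TM7SF2, fell from 145 and 163 CPM to 95.5, 99.0 and 96.1 CPM (-0.67, adjusted p = 2.02e-07; -0.43, adjusted p = 0.376, in 6 libraries). GGPS1, which makes geranylgeranyl diphosphate, rose by 0.22 (adjusted p = 0.0417; 0.23, adjusted p = 0.371, in 6 libraries). Of 8 genes of isoprenoid side branches, 1 fell (PDSS1, -0.46) and 1 rose (PDSS2, 0.33), both subunits of the enzyme that makes the ubiquinone tail; in 6 libraries they were at -0.57 (adjusted p = 0.203) and 0.35 (adjusted p = 0.302).

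Of 8 genes that process or degrade SREBP pathway proteins, 2 fell. C12orf49, a factor needed for SREBP activation, fell by 0.35 (adjusted p = 0.00082), and MBTPS2, the site-2 protease, fell by 0.25 (adjusted p = 0.00447). In 6 libraries C12orf49 was at -0.35 (adjusted p = 0.280), and MBTPS2 turned to 0.10 (adjusted p = 0.885).

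Of 9 genes of sterol uptake, transport and esterification, 2 fell and 1 rose. VLDLR, a lipoprotein receptor, had 27.99, 27.4 and 21.6 CPM with DMSO and 104, 102 and 105 CPM with CAPE, well apart. It rose in 6 libraries (2.01, adjusted p = 0.00915) and without DMSO 3 (1.90, adjusted p = 7.70e-12), and was the 1 gene of these 8 lists that passed in 6 libraries. Of 7 genes of LXR, the receptor for oxysterols, and its targets, 0 fell (edgeR and DESeq2, and at an unadjusted p under 0.05 as well) and 1 rose. This was ABCG1, a sterol exporter, at only 0.0527, 0.313 and 0.0684 CPM with DMSO and 1.11, 1.17 and 1.12 CPM with CAPE; its adjusted p was 0.00159, and 0.0805 in 6 libraries.

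Of 17 other genes of fatty acid synthesis, elongation and desaturation, 5 fell and 4 rose. Among them MID1IP1, an activator of acetyl-CoA carboxylase, fell by 0.34 (adjusted p = 0.000109) and SLC25A1, the mitochondrial citrate carrier, by 0.19 (adjusted p = 0.0124), while ELOVL7, an elongase, rose by 0.91 (adjusted p = 6.70e-05) and FADS3, a desaturase, by 0.33 (adjusted p = 0.000142). In 6 libraries the values were -0.64 for MID1IP1 (adjusted p = 0.289), -1.11 for SLC25A1 (adjusted p = 0.346), 1.02 for ELOVL7 (adjusted p = 0.0667) and -0.024 for FADS3 (adjusted p = 0.961), whose sign turned. Of 13 genes of fatty acid activation and glycerolipid synthesis, 5 fell and 3 rose. GPAM, the mitochondrial glycerol-phosphate acyltransferase, fell by 0.67 (adjusted p = 2.19e-06) and ACSL3, an acyl-CoA synthetase, by 0.49 (adjusted p = 2.79e-06). The LPIN1 relatives LPIN3 (0.61, adjusted p = 0.000228) and LPIN2 (0.39, adjusted p = 0.000761) rose, against the fall of LPIN1. In 6 libraries GPAM was at -0.38 (adjusted p = 0.486), ACSL3 at -0.28 (adjusted p = 0.490), LPIN3 at 0.81 (adjusted p = 0.191) and LPIN2 at 0.61 (adjusted p = 0.307).

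Of 12 genes of fatty acid oxidation and PPAR targets, 5 fell and 4 rose. ANGPTL4, an inhibitor of lipoprotein lipase, rose by 2.16 (adjusted p = 7.54e-11) and PLIN2, a lipid droplet coat protein, by 2.12 (adjusted p = 1.49e-09). PLIN2 had 7.43, 8.93 and 15.5 CPM with DMSO and 35.2, 32.7 and 39.4 CPM with CAPE. PDK4, a kinase that shuts pyruvate dehydrogenase, fell by 1.16 (adjusted p = 1.68e-10) and CPT1A, which brings fatty acids into mitochondria, by 0.39 (adjusted p = 7.96e-06). In 6 libraries the values were 1.44 for ANGPTL4 (adjusted p = 0.223), 1.76 for PLIN2 (adjusted p = 0.0514), -0.89 for PDK4 (adjusted p = 0.234) and -0.51 for CPT1A (adjusted p = 0.219). ANGPTL4 was at 76.8 CPM in DMSO 3 against 25.98 and 26.05 CPM in DMSO 1 and 2. Median log2 fold changes without DMSO 3 were -0.25 for the other sterol genes, 0.01 for the other fatty acid genes and 0.01 for this last list.

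**Figure D5:**
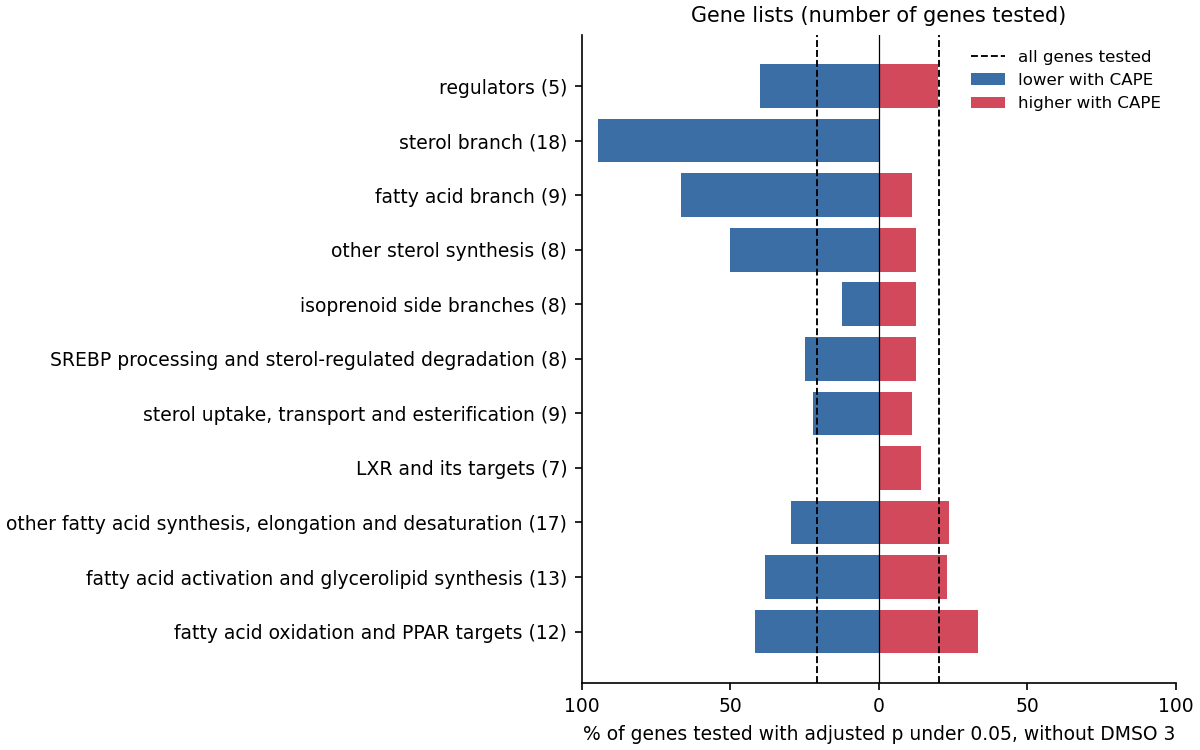
Percent of tested genes in each list that fell (left) or rose (right) with CAPE at an adjusted p under 0.05 without DMSO 3, with dashed lines at the share over all genes (20.8% lower, 20.4% higher). The sterol branch bar reaches farthest to the left (17 of 18 genes), followed by the fatty acid branch (6 of 9), and neither the sterol branch nor the LXR list has a bar on both sides.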

How the data were processed

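Each kind of library, 3 DMSO and 3 CAPE, was compared with the treatment as the only term. For mRNA the authors deposited estimated counts per gene symbol, whole numbers as deposited, and TPM, which the submitters' processing notes tie to bcl2fastq, kallisto 0.46.1 and GRCh38. How transcripts became genes, and by which annotation release, is not given in the sources used here. The authors deposited raw miRNA counts in 2888 entries with 2656 names, of which the most abundant entry per name was used; the counter is not given in the sources used here.

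The tests were edgeR 4.0.16 quasi-likelihood F tests (R 4.3.3, filterByExpr, TMM), at a Benjamini-Hochberg p under 0.05 adjusted over 13595 genes (13919 without DMSO 3) or 527 miRNAs. The SE is the fold change divided by the square root of F. Relative transcript length is the deposited count over the deposited TPM. Alternatives used DESeq2 1.42.0 and limma 3.58.1. The libraries' counts differed by more than sampling noise in every pair, and no libraries were identical. A check of whether same-numbered DMSO and CAPE libraries deviated together could not decide on pairing, because DMSO 3 shifted the control mean.

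All 32 members are reported. Of each other list, the genes named have the smallest p in each direction among those passing; some list genes are not reported here. The members and lists were chosen with earlier results of these data known.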

Additional observations from a re-analysis of the deposited data

How the results depend on the processing

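The 6-library calls rest on a wide control spread: 265 genes were called, 870 with DESeq2, 139 with a transcript length offset, 5592 with limma voom sample quality weights (0.020 for DMSO 3), 135 on log2(TPM + 1), 88 on log2(TPM + 0.1), and 0 to 5731 when libraries were left out (each of the 6 alone, and DMSO 3 with each of the others), the highest without DMSO 3. The genes called lower among the 32 numbered 3, against 14 (DESeq2), 25 (quality weights), 1 (TPM + 1, FDFT1), 0 (TPM + 0.1) and 0 to 25 with libraries left out; those called higher numbered 1, against 3 (quality weights), 0 (either TPM scale) and 0 to 4, where 4 is without DMSO 3 and CAPE 2. Without CAPE 1 and without CAPE 3 no gene passed, with 1178 and 1099 at an unadjusted p under 0.05.

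Whether the replicate numbers pair the libraries could not be decided, because DMSO 3 shifted the control mean. Deviations of same-numbered libraries correlated at -0.22, 0.19 and -0.0031. With the number as a replicate block, edgeR called 0 genes, 0 of the 32 lower and 0 higher, with 1384 genes at an unadjusted p under 0.05; 63 miRNAs were called.

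The sterol median was -0.55 with quality weights, -0.45 on TPM + 1, -0.46 on TPM + 0.1 and -1.07 to -0.55 with libraries left out (to -0.56 with 1). The fatty acid median was -0.37 with DESeq2, -0.44 with the length offset and -0.34 to -0.23 with libraries left out (from -0.32 with 1); it was 0.02 on TPM + 1 and 0.07 on TPM + 0.1, where the median over all genes was 0.31 and 0.40. The difference of the medians was -0.24 with quality weights and -0.84 to -0.21 with libraries left out (to -0.24 with 1). The miRNAs called numbered 62, and 17 to 128 with each library left out alone.

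On the TPM scales (TPM + 1, TPM + 0.1) the sign turned for FADS1 (0.22, 0.22), HMGCS1 (0.27, 0.29), LPIN1 (0.021, 0.092), SCAP (0.15, 0.15), SCD (0.067, 0.068) and SREBF1 (0.23, 0.23). The median over all genes was 0.31 and 0.40 on these scales, and each of these values lay below it. Quality weights turned ELOVL6 (-0.10), SC5D (-0.28), STARD4 (-0.29) and SREBF1 (0.14), and the length offset ELOVL6 (-0.25) and SC5D (-0.020). SC5D was -0.024 with DESeq2 size factors, -0.015 without a filter and -0.038 with DESeq2. With libraries left out, values ran from -0.072 to 0.65 for ACSS2, -0.13 to 0.23 for ELOVL6, -0.41 to 0.26 for SC5D, -0.65 to 0.036 for SCAP, -0.27 to 0.19 for SREBF1, -0.38 to 0.37 for STARD4, -0.33 to 1.46 for TM7SF2 and -0.035 to 0.23 for miR-33a-3p. The cause was not tested. The remaining 21 of the 32 kept their sign in every alternative.

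Alternatives on the 5 libraries without DMSO 3 were added after seeing the data. They called 21 to 25 of the 32 lower and 1 to 4 higher, INSIG1 and INSIG2 in each.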
